A study of Homo sapiens with 6 samples.

Results

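The genes described here are 10 that build, break down or regulate the polyamines, taken by gene symbol from a deposited table of 23998 symbols. They were chosen with earlier results of these data known. All 10 were present and all 10 passed the filter on low counts, which left 15422 genes for testing. They comprise the synthesis genes ODC1, AMD1, SRM and SMS, the breakdown genes SAT1, SMOX and PAOX, the antizyme genes OAZ1 and OAZ2, and the antizyme inhibitor gene AZIN1. RNA-seq of poly(A) RNA was made from LNCaP, an androgen-responsive human prostate cancer line, in 2 groups of 3 libraries. LNCaP-ENZR are LNCaP cells labelled resistant to enzalutamide, an antiandrogen, after exposure to increasing doses from 5 to 50 µM for more than 12 months in medium with 10% charcoal-stripped serum. LNCaP-WT are untreated LNCaP cells, and the growth protocol given for every sample names 10% fetal bovine serum. The labels do not say whether drug or stripped serum was present at harvest, and drug, serum and time in culture cannot be told apart in this design. The resistant libraries come from a single derivation, and whether the 3 libraries of a group are separate cultures is not stated, so that p-values measure the spread between libraries, which may be technical.

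Polyamines are small positively charged molecules that bind RNA, DNA and nucleotides and that growing cells need. Ornithine decarboxylase (ODC1) makes putrescine from ornithine, and spermidine synthase (SRM) and spermine synthase (SMS) each add an aminopropyl group that comes from S-adenosylmethionine after its decarboxylation by AMD1. SAT1 acetylates spermidine and spermine, PAOX oxidises the acetylated products, and SMOX oxidises spermine directly. Antizymes bind ODC1 and deliver it to the proteasome, and AZIN1, a relative of ODC1 without decarboxylase activity, binds antizyme in its place. The prostate is known for making and secreting large amounts of spermine. ODC1, AMD1, SAT1 and the antizymes are strongly controlled at translation and protein turnover, and the values below are RNA levels only.

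The labelled cell type was checked with marker genes. The 9 luminal prostate markers in the table had summed levels of 2681 to 2753 CPM in LNCaP-ENZR and 5273 to 5404 CPM in LNCaP-WT libraries. CPM are counts relative to the TMM-scaled library size. Of these markers, 2 rose, 6 fell and 1 did not pass, beside 34.4% of all tested genes that rose and 34.8% that fell. KLK3, which encodes prostate-specific antigen, was at 140.7 ± 8.58 CPM in LNCaP-ENZR and 495.3 ± 20 CPM in LNCaP-WT (SD, n = 3). The markers that rose were HOXB13, 1.37-fold, and TMPRSS2, 1.14-fold, and KRT18 did not pass. Basal markers, of which KRT5 had 1 count in LNCaP-ENZR and 0 in LNCaP-WT, summed to at most 0.544 CPM in any library, the 4 leukocyte markers to at most 0.548 CPM and the 2 endothelial markers to at most 0.453 CPM. The 4 fibroblast markers summed to 100.1 to 123.2 CPM in LNCaP-ENZR and 107.2 to 121.5 CPM in LNCaP-WT, most of it COL1A1, and none of them passed the test. Within groups COL1A2 was uneven, with 9, 332 and 111 counts in LNCaP-ENZR and 167, 21 and 193 in LNCaP-WT. The libraries held 34505712 to 36610862 counts. Genes encoded in mitochondria took 12.8% to 13.4% of counts in LNCaP-ENZR and 11.5% to 11.7% in LNCaP-WT, and genes of the shortest length decile had a median log2 fold change of 0.22, against -0.14 in the longest decile. The part of these differences in the results below was not tested.

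Of the 10 polyamine genes, 5 rose in LNCaP-ENZR (ODC1, SRM, SMS, OAZ1 and OAZ2), 2 fell (SAT1 and AMD1) and 3 did not pass (AZIN1, PAOX and SMOX) (edgeR quasi-likelihood F test, adjusted p below 0.05). Over all tested genes, 34.4% rose and 34.8% fell, so 7 called genes of 10 stands near the background of 69.2%. The median log2 fold change of the 10 was 0.08, against -0.01 over all tested genes. The libraries of the groups did not overlap for 7 of the 10, and for 72.2% of all tested genes. ODC1 and SRM rose at least 2-fold, as did 9.74% of tested genes. In bulk RNA, fewer cells with a transcript and less of it per cell cannot be told apart.

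**Figure D1:**
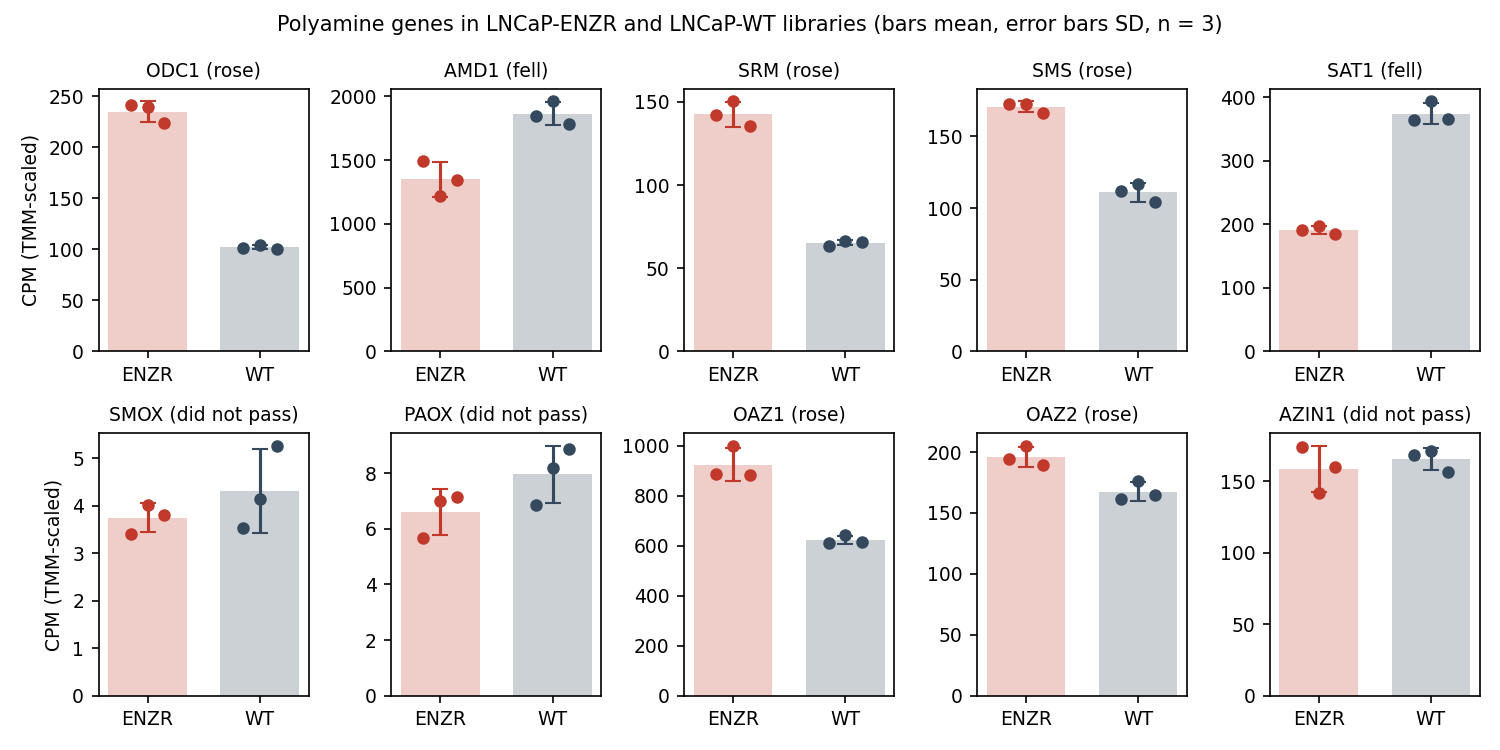
Level of each polyamine gene in CPM (y axis from 0, TMM-scaled) in the 3 LNCaP-ENZR libraries (left, red) and the 3 LNCaP-WT libraries (right, blue); bars are means and error bars SD. ODC1, SRM, SMS, OAZ1 and OAZ2 stand higher in LNCaP-ENZR and AMD1 and SAT1 lower without overlap, while points of SMOX, PAOX and AZIN1 overlap.

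Synthesis genes were led by ODC1, which encodes the enzyme that commits ornithine to polyamines and is a classical target of MYC. ODC1 was at 241.7, 239.6 and 223.4 CPM in the LNCaP-ENZR libraries, against 101.5, 104.3 and 100.8 CPM in the LNCaP-WT libraries. Every resistant library lay more than 100 CPM above every parental one. The log2 fold change was 1.20 ± 0.0542 (SE), or 2.30-fold (edgeR adjusted p = 3.4e-13). The gene lies on chromosome 2 at 10439968 to 10448327 (GRCh38).

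SRM, which makes spermidine from putrescine and lies on chromosome 1 at 11054589 to 11060018, rose 2.18-fold. It was at 142 (replicate 1), 150.3 (replicate 2) and 135.3 (replicate 3) CPM in LNCaP-ENZR, against 63.6, 66.7 and 65.7 CPM in LNCaP-WT (log2 fold change 1.12 ± 0.0589 SE, edgeR adjusted p = 2.9e-12). SMS, which makes spermine from spermidine and lies on chromosome X at 21940709 to 21994837, rose less, 1.54-fold. It was at 172.8, 172.7 and 166.4 CPM in LNCaP-ENZR, against 111.9, 116.7 and 104 CPM in LNCaP-WT (log2 fold change 0.62 ± 0.0568 SE, edgeR adjusted p = 1e-08). For both synthases all 3 resistant libraries were above all 3 parental ones. RefSeq lists 3 pseudogenes of SRM and 1 of SMS, none of them in the deposited table, and reads that they share with their parent gene make these values uncertain.

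AMD1, which decarboxylates S-adenosylmethionine and so supplies the aminopropyl groups, went the other way. It was at 1492, 1216 and 1345 CPM in LNCaP-ENZR, against 1846, 1960 and 1783 CPM in LNCaP-WT, so that its highest resistant library stayed below its lowest parental one. The fall was 1.38-fold (log2 fold change -0.46 ± 0.0641 SE, edgeR adjusted p = 5.8e-06). AMD1 was among the most counted genes of these cells, 49th in LNCaP-ENZR and 26th in LNCaP-WT of all 23998 by mean CPM. It lies on chromosome 6 at 110814617 to 110895713, and RefSeq lists 4 pseudogenes of it that can share its reads.

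The starts of ODC1 and SRM, the genes that rose most, and of SAT1, the gene that fell most, are shown with matches to the E-box CACGTG, which the factor MYC is known to bind together with MAX. MYC rose 2.31-fold, to 401.3 ± 8.48 CPM in LNCaP-ENZR against 173.9 ± 5.44 CPM in LNCaP-WT (SD, n = 3, edgeR adjusted p = 1.4e-13), and MAX rose 1.58-fold. RefSeq windows from 250 bases before to 50 after an annotated start (GRCh38.p14) were found for 7 of the 10 genes, 10 windows in all, and not for SMOX, PAOX and AZIN1. CACGTG, which reads the same on both strands, occurred in 2 of these 10 windows, 1 of the 2 of ODC1 and the only one of SRM, and in 7.26% of all 35116 windows. The 244 bases shown for SRM (chr1:11060025-11060268, minus strand), just before its exons, hold it 199 bases upstream of the RefSeq start, in capitals. The window of the outer ODC1 start, which is not shown, held none, nor did the 250 bases before the SAT1 start (chrX:23782923-23783172, plus strand). A second annotated ODC1 start lies inside the gene. For it 60 bases are shown (chr2:10447998-10448057, minus strand), cut so as to hold its matches. They fall in no exon of the 4 GENCODE transcripts of ODC1 and hold CACGTG 29 bases upstream and again 5 bases downstream of that start. The windows of SMS, OAZ1 and OAZ2, which also rose, held none. A match is a description of letters and not a bound site, and any link between these RNA changes was not tested.
SRM: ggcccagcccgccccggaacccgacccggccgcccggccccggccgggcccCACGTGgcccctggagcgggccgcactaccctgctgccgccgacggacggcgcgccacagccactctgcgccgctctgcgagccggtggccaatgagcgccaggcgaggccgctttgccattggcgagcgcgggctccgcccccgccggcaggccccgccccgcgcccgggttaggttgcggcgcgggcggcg
ODC1, inner start: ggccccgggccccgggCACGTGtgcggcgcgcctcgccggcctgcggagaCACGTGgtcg
SAT1: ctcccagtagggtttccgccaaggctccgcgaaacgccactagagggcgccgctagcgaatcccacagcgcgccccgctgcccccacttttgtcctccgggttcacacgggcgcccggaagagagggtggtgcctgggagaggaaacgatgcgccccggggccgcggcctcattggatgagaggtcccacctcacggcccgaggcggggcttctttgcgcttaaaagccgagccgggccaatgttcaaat

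Breakdown genes fell or did not pass. SAT1, which acetylates spermidine and spermine for export or oxidation, was at 191.9, 198.1 and 184.8 CPM in LNCaP-ENZR, against 364.1, 393.6 and 365.9 CPM in LNCaP-WT. All resistant libraries stood below 200 CPM, far under the lowest parental one. The fall was 1.95-fold (log2 fold change -0.97 ± 0.0536 SE, edgeR adjusted p = 6.7e-12). SAT1 lies on chromosome X at 23783173 to 23786210.

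The oxidase genes were scarce. PAOX, which oxidises acetylated polyamines and lies on chromosome 10 at 133379262 to 133391694, had 198, 248 and 249 counts in LNCaP-ENZR, against 243, 299 and 321 counts in LNCaP-WT. These groups overlap, and the difference did not pass (log2 fold change -0.27, 95% interval -0.56 to 0.02, edgeR adjusted p = 0.0934). Over 16 alternatives its adjusted p ranged from 0.0275 to 0.35. It passed under 4 of them, which were scaling by library totals (edgeR adjusted p = 0.0306), limma-trend on FPKM with a pseudocount of 0.1 (0.0283) or 1 (0.0275), and leaving out LNCaP-WT 1 (edgeR adjusted p = 0.0452). SMOX, which turns spermine back into spermidine and lies on chromosome 20 at 4148828 to 4187727, had 119, 142 and 133 counts in LNCaP-ENZR, against 125, 151 and 191 counts in LNCaP-WT. Its interval, a log2 fold change of -0.58 to 0.18 around -0.20, is wide at this depth (edgeR adjusted p = 0.332).

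**Figure D2:**
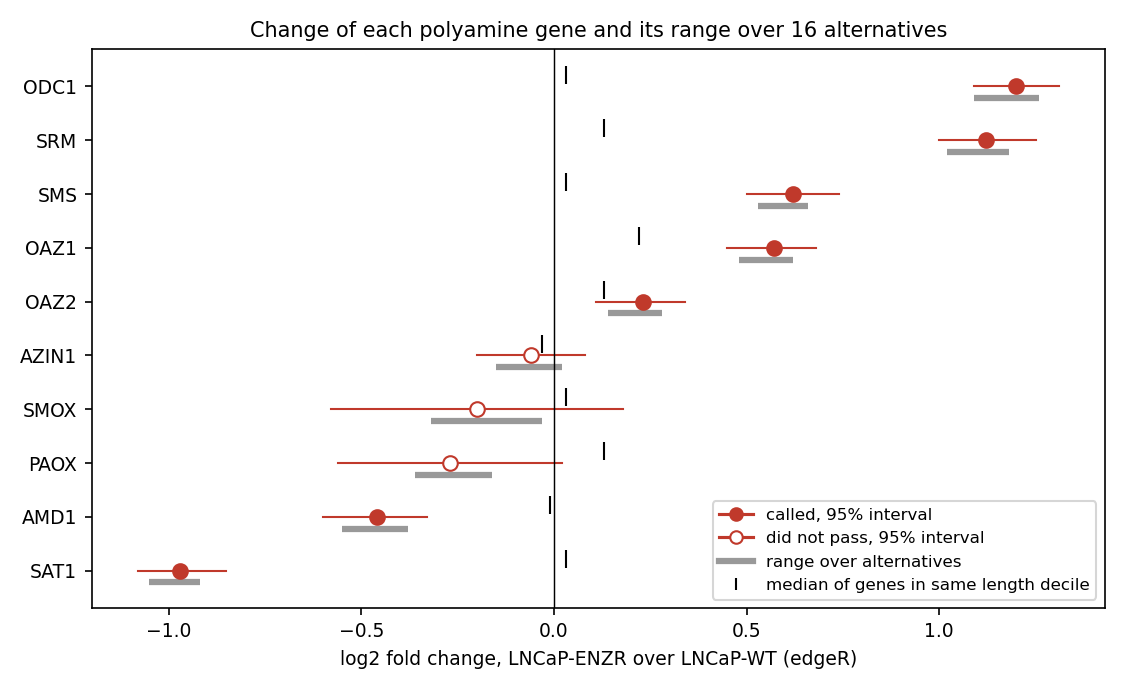
Log2 fold change of each polyamine gene, LNCaP-ENZR over LNCaP-WT, from edgeR (x axis), with its 95% interval (red line; filled point, called; open point, did not pass), its range over 16 alternatives (grey bar) and the median of all tested genes of the same length decile (black tick). ODC1 and SRM lie furthest right at 1.20 and 1.12, SAT1 furthest left at -0.97, and the grey bar of AZIN1 spans 0.

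The antizyme genes OAZ1 and OAZ2 rose, and the inhibitor gene AZIN1 did not pass. OAZ1, the main antizyme gene, on chromosome 19 at 2269486 to 2273488, was at 887.6, 1001 and 884.8 CPM in LNCaP-ENZR, against 613.3, 642 and 614.6 CPM in LNCaP-WT. It rose 1.48-fold without overlap (log2 fold change 0.57 ± 0.0547 SE, edgeR adjusted p = 2.1e-08). OAZ1 is short, with an implied length of 1181 bases, and the genes in its length decile had a median log2 fold change of 0.22. RefSeq lists 1 pseudogene of OAZ1. OAZ2, a related antizyme gene on chromosome 15 at 64687574 to 64703281, rose 1.17-fold, with 194, 205.2 and 189.3 CPM in LNCaP-ENZR against 161.5, 176.1 and 164.8 CPM in LNCaP-WT (log2 fold change 0.23 ± 0.0553 SE, edgeR adjusted p = 0.0012). The OAZ2 groups are separate but close, and the genes of its length decile had a median of 0.13. The part of transcript length in either rise was not tested.

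Antizyme messages carry a stop codon inside their coding sequence, which ribosomes pass by shifting reading frame, more often when polyamines are abundant. The 36 bases around that stop are shown for both genes, with the codon before it and the TGA stop in capitals. They were read from GENCODE release 29 transcripts at chr19:2271425-2271460 (plus strand) for OAZ1 and chr15:64691498-64691533 (minus strand) for OAZ2 on GRCh38. The annotated coding sequence skips the base at 2271443 in OAZ1 and at 64691515 in OAZ2, the T of that TGA. The 2 stretches are identical at 34 of 36 bases. Read counts do not record how often the shift occurs.
OAZ1: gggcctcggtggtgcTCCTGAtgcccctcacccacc
OAZ2: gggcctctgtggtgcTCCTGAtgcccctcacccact

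AZIN1, on chromosome 8 at 102826302 to 102864200, was at 174.2, 141.7 and 159.8 CPM in LNCaP-ENZR, against 168.2, 171.2 and 156.6 CPM in LNCaP-WT. The resistant libraries span the whole range of the parental ones (log2 fold change -0.06, 95% interval -0.20 to 0.08, edgeR adjusted p = 0.439). Without LNCaP-ENZR 2 its log2 fold change was 0.02. That library had the lowest AMD1 and AZIN1 and the highest OAZ1 and OAZ2 of the resistant group. Against the other 2 resistant libraries its genes had a median log2 difference of 0.10 in the shortest length decile and -0.13 in the longest. LNCaP-WT 2 leaned the same way but less, with 0.06 and -0.07 against the other LNCaP-WT libraries. The difference of LNCaP-ENZR 2 from the other resistant libraries was -0.22 for AMD1, -0.23 for AZIN1 and 0.18 for OAZ1. The medians of their own length deciles in that library were 0.03 for AMD1, -0.01 for AZIN1 and 0.10 for OAZ1. The part of length in these differences was not tested.

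Levels of different genes were set side by side per length, in the authors' FPKM. In LNCaP-ENZR the order from high to low was OAZ1 (759.2 ± 51.4 FPKM), AMD1 (354.8 ± 36.8), OAZ2 (98.4 ± 3.63), SRM (93.1 ± 4.46), ODC1 (75.6 ± 2.90), SAT1 (74.6 ± 2.23), SMS (55.0 ± 0.937), AZIN1 (33.7 ± 3.52), PAOX (3.50 ± 0.436) and SMOX (1.48 ± 0.122 FPKM, SD, n = 3 each). In this group the libraries of OAZ2 and SRM overlapped, as did those of ODC1 and SAT1, and other neighbours in the order did not. In LNCaP-WT the order was OAZ1 (543.5 ± 13.3 FPKM), AMD1 (519.4 ± 24.0), SAT1 (154.7 ± 6.59), OAZ2 (89.2 ± 3.98), SRM (45.4 ± 1.09), SMS (37.9 ± 2.11), AZIN1 (37.3 ± 1.64), ODC1 (34.9 ± 0.573), PAOX (4.48 ± 0.581) and SMOX (1.81 ± 0.376 FPKM, n = 3 each). There OAZ1 overlapped with AMD1, SMS with AZIN1 and AZIN1 with ODC1. ODC1 was the fifth in LNCaP-ENZR and the eighth in LNCaP-WT, and SAT1 was the sixth in LNCaP-ENZR and the third in LNCaP-WT. Of the summed FPKM of the 10 genes, AMD1 made up 22.9% in LNCaP-ENZR and 35.4% in LNCaP-WT, and OAZ1 49% in LNCaP-ENZR and 37% in LNCaP-WT.

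**Figure D3:**
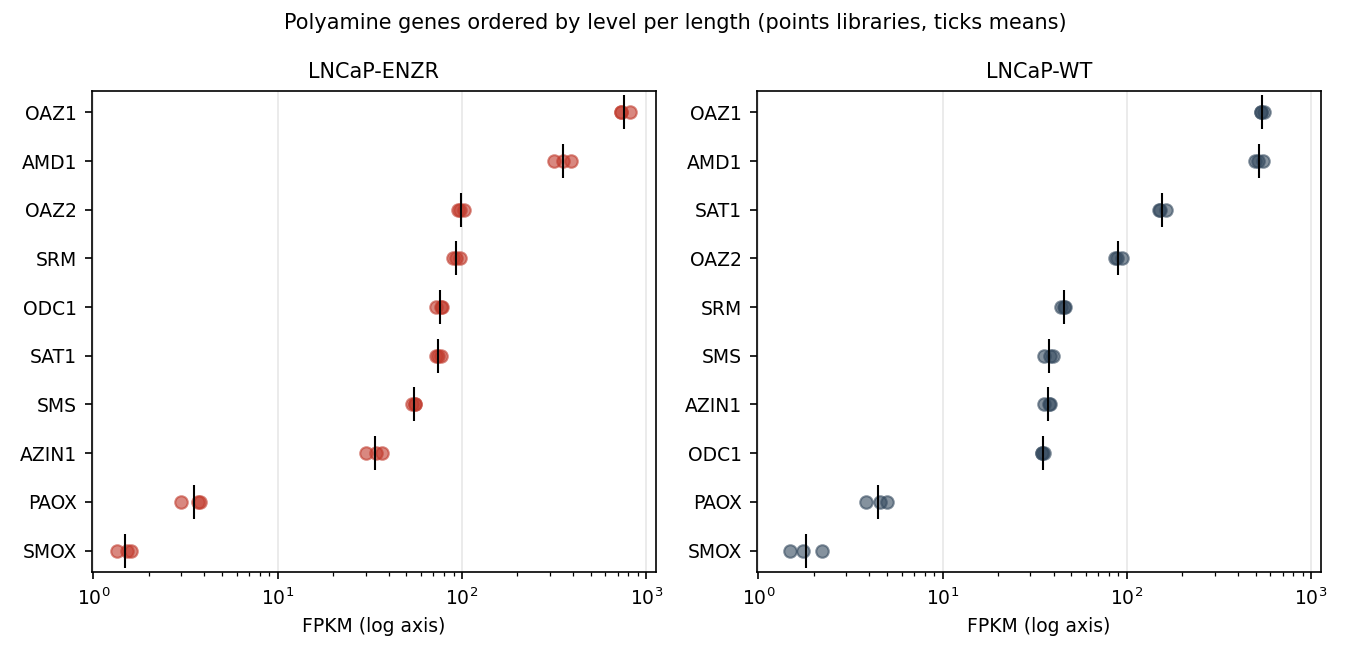
FPKM of the 10 polyamine genes (x axis, log scale) in LNCaP-ENZR (left panel) and LNCaP-WT (right panel), each panel ordered by its own means; points are libraries and black ticks means. SAT1 stands beside ODC1 at 74.6 FPKM in LNCaP-ENZR and is the third at 154.7 FPKM in LNCaP-WT.

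Ratios of 2 genes within a library do not depend on how libraries are scaled. For 8 such ratios, log2 of count plus 0.5, the groups were compared by a two-sided exact permutation test, whose smallest p with 3 against 3 libraries is 0.1, so that no ratio could reach 0.05. Differences between the groups in these ratios follow from the changes of the single genes. The ratio of ODC1 to SAT1, the genes that rose and fell most, changed most. Its log2 value was 0.33, 0.27 and 0.27 in LNCaP-ENZR, against -1.84, -1.92 and -1.86 in LNCaP-WT, a difference of 2.17 or 4.49-fold (exact p = 0.1, adjusted p = 0.114 over the 8 ratios). Per length, the ratio of ODC1 to SAT1 was 1.01 in LNCaP-ENZR and 0.226 in LNCaP-WT.

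AMD1 to ODC1 had log2 ratios of 2.63, 2.34 and 2.59 in LNCaP-ENZR, against 4.19, 4.23 and 4.14 in LNCaP-WT, and was 3.18-fold lower in LNCaP-ENZR. Per length, the ratio of AMD1 to ODC1 was 4.70 in LNCaP-ENZR and 14.9 in LNCaP-WT. Relative to the antizyme OAZ1, ODC1 was 1.55-fold higher (log2 ratio -1.98 ± 0.0934 in LNCaP-ENZR and -2.61 ± 0.013 in LNCaP-WT) and AZIN1 1.55-fold lower (-2.55 ± 0.245 in LNCaP-ENZR and -1.92 ± 0.0532 in LNCaP-WT, SD, n = 3). For AZIN1 to OAZ1, LNCaP-ENZR 2 was the lowest at -2.82, with -2.35 and -2.47 in the other resistant libraries. The length decile of AZIN1 had a median log2 fold change of -0.03 and that of OAZ1 0.22, and the part of length in the ratios was not tested. OAZ2 was 1.26-fold lower relative to OAZ1, SMS 1.41-fold lower relative to SRM and SAT1 1.72-fold lower relative to SMOX. Each of these ratios had groups that did not overlap and the same exact permutation p of 0.1 and adjusted p of 0.114. The share of single tested genes without overlap was 72.2%, and no such share was computed for ratios of other gene pairs. The ratio of SMOX to PAOX overlapped between groups, at -0.81 ± 0.0855 in LNCaP-ENZR and -0.90 ± 0.129 in LNCaP-WT (exact permutation p = 0.4, adjusted p = 0.4, n = 3).

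**Figure D4:**
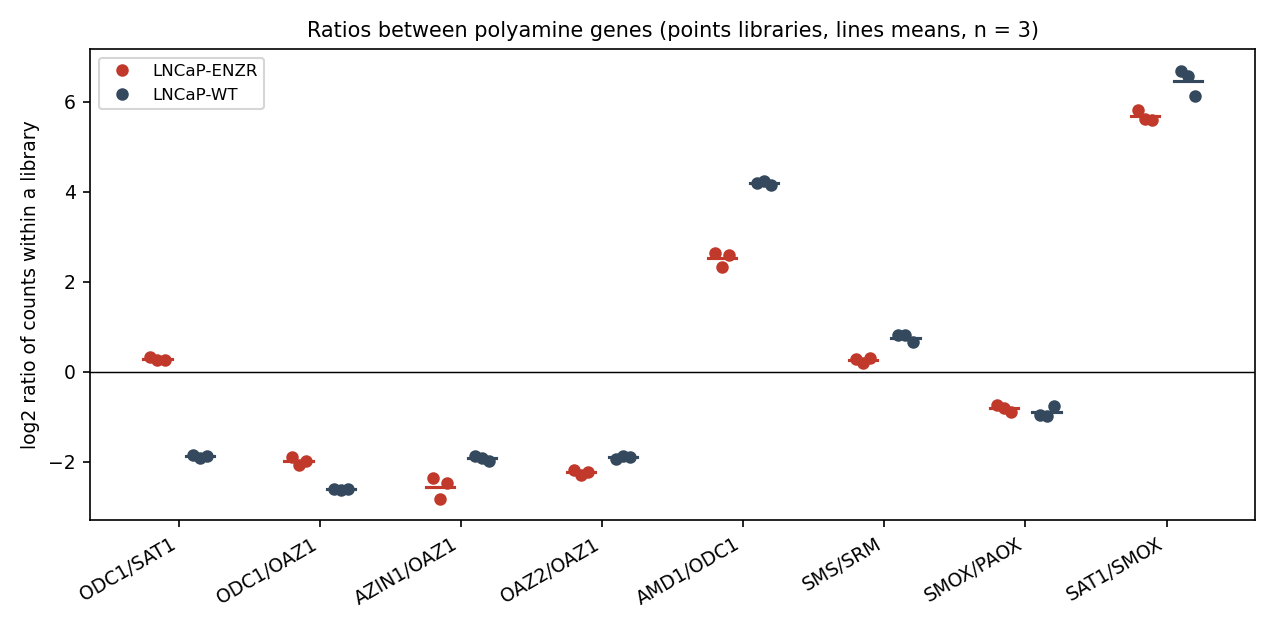
Log2 ratio of counts between 2 polyamine genes within each library (y axis) for 8 ratios (x axis), with LNCaP-ENZR libraries in red on the left of each ratio and LNCaP-WT in blue on the right; short lines are means. ODC1/SAT1 lies near 0.29 in LNCaP-ENZR and -1.87 in LNCaP-WT, and SMOX/PAOX overlaps.

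Neighbouring genes upstream and downstream of the pathway are given by list, beside the 34.4% of all tested genes that rose and the 34.8% that fell. Of 9 genes of S-adenosylmethionine supply and methionine salvage, 6 rose and 1 fell, and the other 2 missed the threshold, so 7 of 9 were called against 69.2% of all tested genes. Their median log2 fold change was 0.39, against -0.01 over all tested genes. ADI1, an enzyme of the salvage of methylthioadenosine, the by-product of both synthases, was at 139, 150 and 137.5 CPM in LNCaP-ENZR, against 45.2, 51.1 and 45 CPM in LNCaP-WT (3.02-fold, edgeR adjusted p = 8.6e-14). MTAP, which starts that salvage, rose 1.88-fold to 56.1 ± 4.80 CPM in LNCaP-ENZR, against 29.8 ± 1.88 CPM in LNCaP-WT. AHCY, which hydrolyses S-adenosylhomocysteine, rose 2.75-fold to 412.8 ± 11.3 CPM in LNCaP-ENZR, against 150.1 ± 3.54 CPM in LNCaP-WT (n = 3). APIP, another salvage enzyme, fell 1.27-fold.

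Of 14 genes of arginine and ornithine supply, 10 were tested. Of these 6 rose and 2 fell, and the other 2 missed the threshold (median log2 fold change 0.59, against -0.01 over all tested genes). Over all tested genes 34.4% rose and 34.8% fell. SLC25A15, the mitochondrial ornithine carrier, rose 1.91-fold and the arginine transporter SLC7A1 1.77-fold. GATM, which uses arginine to make guanidinoacetate, rose 2.45-fold from few counts, 40, 49 and 59 in LNCaP-ENZR against 16, 32 and 14 in LNCaP-WT. AZIN2, a second antizyme inhibitor gene, fell 3.28-fold, with 1.77, 1.75 and 1.78 CPM in LNCaP-ENZR against 5.63, 6.11 and 5.71 CPM in LNCaP-WT (log2 fold change -1.72 ± 0.173 SE, edgeR adjusted p = 4.3e-08). ASL of the urea cycle was 1.13-fold lower (edgeR adjusted p = 0.0494). That call was lost without LNCaP-ENZR 1 (adjusted p = 0.18), LNCaP-ENZR 3 (0.146), LNCaP-WT 1 (0.111), LNCaP-WT 2 (0.149) or LNCaP-WT 3 (0.0715), and the list then held 1 lower gene.

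Downstream, the hypusine pathway uses spermidine to modify the translation factor eIF5A. EIF5A, which encodes that factor, rose 2.07-fold, with 428, 451.8 and 418.9 CPM in LNCaP-ENZR against 202.3, 217.3 and 206.5 CPM in LNCaP-WT (log2 fold change 1.05 ± 0.053 SE, edgeR adjusted p = 1.7e-12). EIF5A is known to have pseudogenes that can share its reads. DHPS, which carries out the spermidine step, fell 1.27-fold to 59.9 ± 2.20 CPM in LNCaP-ENZR, against 76.0 ± 3.95 CPM in LNCaP-WT (n = 3, edgeR adjusted p = 8.5e-05). DOHH, which completes the modification, was at 11.7 ± 1.43 CPM in LNCaP-ENZR and 10.1 ± 1.09 CPM in LNCaP-WT, and EIF5A2 at 8.61 ± 0.941 CPM in LNCaP-ENZR and 10.0 ± 0.964 CPM in LNCaP-WT, and neither passed (edgeR adjusted p = 0.128 and 0.121). DOHH did pass without LNCaP-ENZR 1 (adjusted p = 0.04) or LNCaP-WT 2 (0.0458), so that the list then held 2 higher genes in place of 1. Of these 4 genes 1 rose and 1 fell, beside 34.4% and 34.8% of all tested genes, and their median log2 fold change was -0.01.

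Of 9 measured genes of polyamine transport, 6 were tested. Of these 3 rose and 2 fell, and 1 missed the threshold, while 34.4% of all tested genes rose and 34.8% fell (median log2 fold change 0.24 in the list and -0.01 over all). The vesicular carrier SLC18B1 rose 1.61-fold, SLC3A2, a partner chain of amino acid exchangers, 1.39-fold and ATP13A3, a transport ATPase, 1.31-fold, while the lysosomal polyamine exporter ATP13A2 fell 1.18-fold. The number of lower genes in this list was 1 when any of the 6 libraries was left out. Among 6 measured genes of other amine acetylation and oxidation, 1 rose and 2 fell, and the other 3 missed the threshold (median log2 fold change 0.05), so 3 of 6 were called against 69.2% of all tested genes. AOC1, the diamine oxidase that degrades putrescine and histamine, was at 0.515, 0.255 and 0.602 CPM in LNCaP-ENZR, against 5.75, 6.54 and 7.47 CPM in LNCaP-WT, and fell 14.3-fold (log2 fold change -3.84 ± 0.252 SE, edgeR adjusted p = 8.1e-11). HDAC10, a deacetylase of acetylated polyamines, fell 1.59-fold. AOC3, an amine oxidase that does not act mainly on polyamines, rose 1.21-fold with overlapping libraries (edgeR adjusted p = 0.0406). It no longer passed without LNCaP-ENZR 2 (0.0705), LNCaP-ENZR 3 (0.131), LNCaP-WT 1 (0.112) or LNCaP-WT 3 (0.116).

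**Figure D5:**
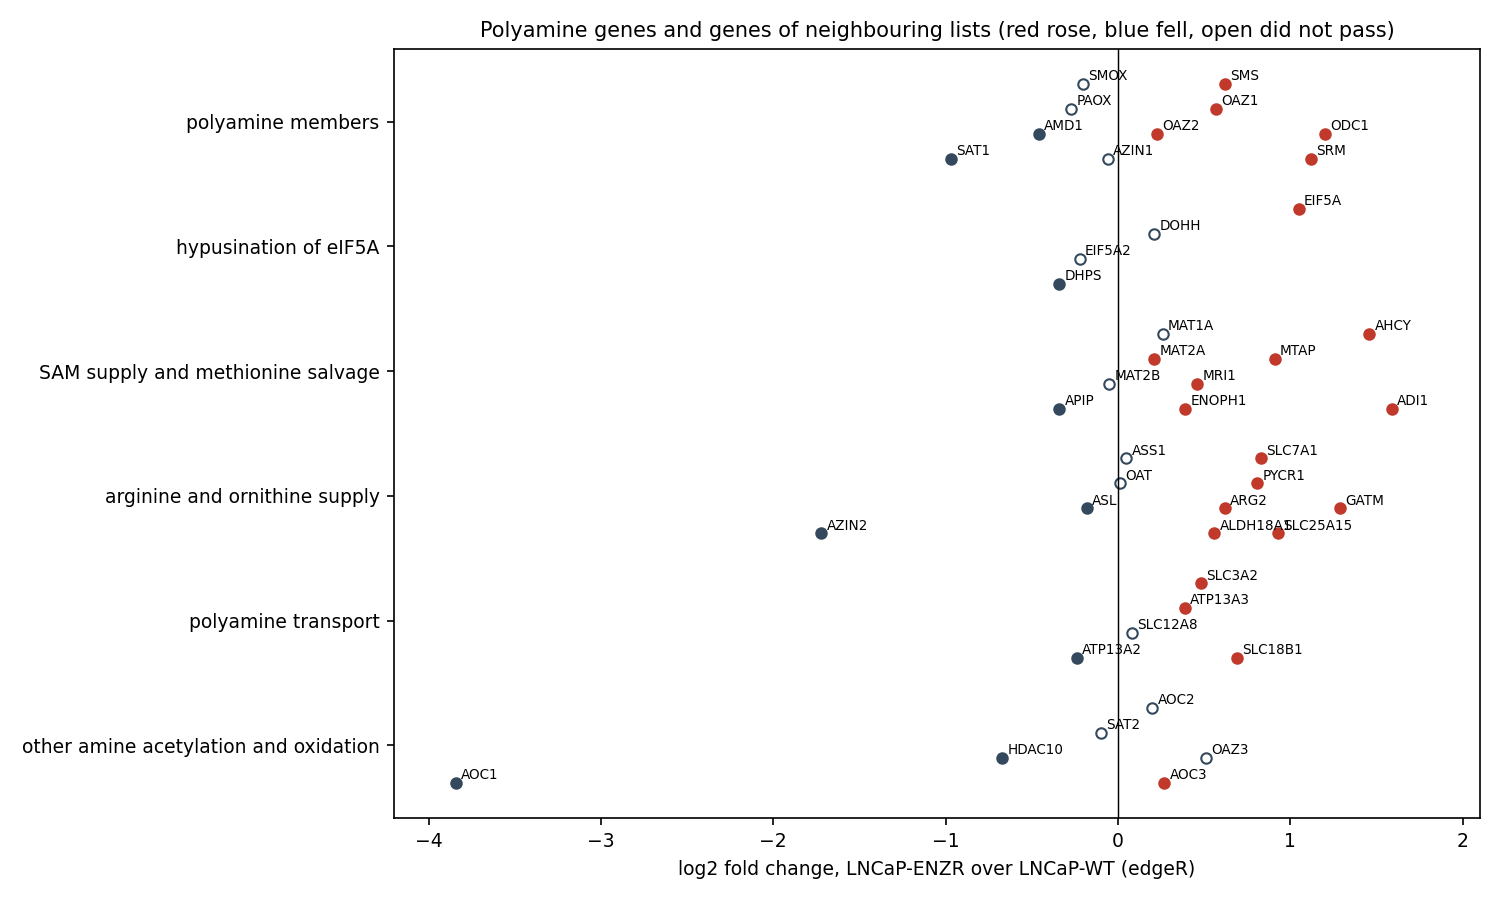
Log2 fold change, LNCaP-ENZR over LNCaP-WT, from edgeR (x axis) of the 10 polyamine genes and of 34 of the 35 tested genes in 5 neighbouring lists (rows; vertical offsets within a row only separate labels). Red points rose, blue points fell and open points did not pass; AOC1 lies furthest left at -3.84 and ADI1 furthest right at 1.59.

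Of 6 regulators listed for context, 5 were tested. Of these MYC, MAX and NFE2L2 rose, 1 fell and 1 missed the threshold, beside 34.4% of all tested genes that rose and 34.8% that fell. NFE2L2, which encodes NRF2, a factor reported to act on SAT1, rose 1.78-fold to 43.9 ± 1.44 CPM in LNCaP-ENZR, against 24.7 ± 0.53 CPM in LNCaP-WT (n = 3). SAT1 fell, and any link between these RNA changes was not tested. PMF1, a partner of NRF2 at the SAT1 gene that is named after its values were seen, was at 15 ± 1.51 CPM in LNCaP-ENZR and 13.1 ± 0.589 CPM in LNCaP-WT and did not pass (edgeR adjusted p = 0.0965).

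The genes whose levels ran most like ODC1 over the 6 libraries were sought among the 11868 genes whose mean reached 100 counts, by Euclidean distance between log2 CPM centred on each gene's mean. RANBP1, a regulator of nuclear transport, came nearest with a distance of 0.0624 and had 206, 204.9 and 189.3 CPM in LNCaP-ENZR, against 83.8, 90.4 and 83.3 CPM in LNCaP-WT. SEH1L, of the nuclear pore, followed at 0.0641 with means of 91.2 CPM in LNCaP-ENZR and 39.4 CPM in LNCaP-WT. MTHFD2, an enzyme of mitochondrial folate metabolism, stood at 0.0673 with means of 178.9 CPM in LNCaP-ENZR and 78.6 CPM in LNCaP-WT. The log2 fold change was 1.22 for RANBP1, 1.21 for SEH1L and 1.19 for MTHFD2, against 1.20 for ODC1. The distance takes in the difference between the groups, so fold changes near that of ODC1 follow from how these genes were chosen.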

How the data were processed

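Raw counts per gene symbol and FPKM were both taken as the authors deposited them, the FPKM being per gene length and library total. Reads were 150 bp paired-end, per the labels' protocols. The tools fastp, HISAT2 and HTSeq and the build GRCh38 come from the submitters' processing notes, with versions, annotation and strand not given in the sources used here.

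Counts were tested with edgeR 4.0.16 (R 4.3.3) over the 15422 genes left by filterByExpr, with TMM factors, the robust two-sided quasi-likelihood F test, group as the only term and Benjamini-Hochberg adjustment. SE were derived from the F statistic. DESeq2 1.42.0 and limma 3.58.1 served as alternatives. Gene lengths are those implied by counts and FPKM. The edgeR fit was tested on simulated data with 50 changed genes at each fold. It recovered 34% of those changed 1.25-fold, 64% at 1.5-fold, 88% at 2-fold and 96% at 4-fold. There were 13 false calls among 15422 genes.

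The neighbouring lists, like the polyamine genes, were chosen with earlier results of these data known. All 10 polyamine genes are named, then up to 3 called genes a direction in each list by size of change, with a mean of at least 10 counts, and the other genes of short lists. Some genes named by this rule are not reported here, though they count in their lists. Within groups, libraries differed beyond counting noise (chi-square over its degrees of freedom 3.73 to 12).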

Additional observations from a re-analysis of the deposited data

How the results depend on the processing

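The 7 calls among the polyamine genes held under each of 16 alternatives, namely other scalings, filters and tools, FPKM values, the replicate block and leaving out single libraries. PAOX made the number of genes called lower 3 under the 4 alternatives in which it passed. The log2 fold change ranged from 1.09 to 1.26 for ODC1, 1.02 to 1.18 for SRM, 0.53 to 0.66 for SMS, 0.48 to 0.62 for OAZ1, 0.14 to 0.28 for OAZ2, -0.55 to -0.38 for AMD1 and -1.05 to -0.92 for SAT1. That of AZIN1 changed sign, to 0.02, without LNCaP-ENZR 2, with a range of -0.12 to 0.02 when single libraries were left out and -0.15 to 0.02 over all alternatives, and the cause was not tested. All 8 ratios kept their direction under the 8 alternatives each had, and that of ODC1 to SAT1 ranged from 2.13 to 2.18. Libraries of the same number showed little likeness between groups (correlation of same-numbered deviations -0.0211, 0.0383 and 0.0982, with 1 of 6 libraries closest to its own number). Replicate 2 of both groups did lean the same way by gene length, and whether libraries of the same number share a batch was not tested. With the replicate block ODC1 had a log2 fold change of 1.20 (edgeR adjusted p = 1.1e-13).

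Small counts in the neighbouring lists moved. Genes called lower in the hypusine list numbered 2 with library totals as the only scaling. Those called lower in the arginine list numbered 1 with DESeq2 size factors, upper-quartile factors, no filter, the DESeq2 Wald test or the replicate block. Those called lower in the transport list numbered 1 with the stricter filter, limma-voom, the DESeq2 Wald test, the replicate block or limma-trend on either FPKM scale. Those called higher in the amine oxidation list numbered 0 with library totals or limma-trend on either FPKM scale. With a library left out, counts ran from 1 to 2 for genes called higher in the hypusine list, 1 to 2 for those called lower in the arginine list, 1 to 1 for those called lower in the transport list and 0 to 2 for those called higher in the amine oxidation list, and the cause was not tested. On log2(FPKM + 1), which shrinks low genes, the log2 fold change was 0.29 for GATM, -0.57 for AZIN2 and -1.48 for AOC1, all still called. At 119 to 321 counts a library, the depth limits what can be said of SMOX and PAOX.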
